A study of Mus musculus with 24 samples.

Results

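The 46 mouse genes described here drive the cell cycle or halt it, and were taken as a fixed list out of 21887 protein-coding genes on chromosomes 1 to 19, X and Y. They comprise 8 genes of DNA replication, 11 of G1-S control, 12 of mitosis, 6 that arrest the cycle, 5 p53 targets or feedback genes and 4 DNA damage kinases. For each gene, peaks of Sox9 and of H3K4me3 were sought by their summits within 1000 bp of either gene end, and in the gene body with 10000 bp on each side. Gene positions are those of RefSeq on GRCm38.p6, which is mm10, the build of the files, and each of the 46 was found there.

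A cell commits to division when cyclin D and cyclin E kinases inactivate the retinoblastoma protein and free E2F factors, which switch on the replication genes. Cyclin B with Cdk1 and the Polo and Aurora kinases then carry the cell through mitosis. After DNA damage, Atm and Atr signal through Chek1 and Chek2 to p53, which induces Cdkn1a, the inhibitor that stops the cycle, and Mdm2, which removes p53 again. In the kidney, injured tubule cells re-enter the cycle to replace lost neighbours, and cells that halt in the cycle have been linked to fibrosis.

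The cells were sorted from kidneys of male mice 9 to 12 weeks old and 25 to 30 g in weight, of genotype Sox9IRES-CreERT2/+:R26RtdT/+, 48 h or 10 days after bilateral ischaemia-reperfusion injury (IRI). Tamoxifen was given at the injury, so that Cre, driven from the Sox9 locus, marked cells with Sox9 activity at that time, and their descendants, with tdTomato; every group shares the injury and the alleles, and there was no uninjured group. Each pellet was fixed in 0.2% PFA and divided into 3 aliquots. CUT&RUN tethers a nuclease to an antibody, so that DNA beside the antibody's target is cut out and sequenced; the aliquots went to an antibody against Sox9, a transcription factor that tubules switch on after injury, to one against H3K4me3, a chromatin mark found where transcription starts, or to an input control. There were 4 replicates, labelled biological, per antibody and time, and how many animals made up a pellet was not given in the sources used here. The titles gave the times, since the label for the cells names d10 even on the 48 h samples. In bulk pellets, a target bound in fewer cells and a target bound less in each cell cannot be told apart.

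The 16 lists held between 7706 and 85415 peaks for Sox9 and between 25811 and 88496 for H3K4me3, and replicate 1 at 10 days held the most of both antibodies. Read depth was unknown. Peak heights, solved from the authors' fold and p-value, fell on whole multiples of a height particular to each library, here called a step, for at least 99.6% of peaks. In each list 92.5% to 97.8% of peaks stood at 1 step, the lowest height listed. Few positions recurred: of 520412 merged regions, 7.27% held a peak in at least 2 libraries and 1.6% in at least 3. Tubule markers had an H3K4me3 peak at an end in 12 of 104 gene-library pairs (17.3% of pairs over all genes). Podocyte markers had one in 8 of 32 pairs and immune markers in 1 of 40. No endothelial or stromal marker had one in more than 2 libraries. Of the tubule markers, Havcr1 and Umod had no end peak of either antibody. Aqp2 had an H3K4me3 end peak in 3 libraries, and the Sox9 gene a Sox9 end peak in 3. The lists therefore gave no check of the labelled cell type.

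At the gene ends, 128 peaks were found for the 46 genes, 40 of Sox9 in 27 genes and 88 of H3K4me3 in 37 genes. The share of genes with a Sox9 peak in at least 1 of 8 libraries was 58.7%, against 51.5% of all genes and 53.9% of genes of the same length deciles. For H3K4me3 it was 80.4%, against 68.3% of all genes and 71.7% of the same deciles. Ccnd2, a cyclin of G1, Ccnb2, a mitotic cyclin, Top2a, the enzyme that untangles replicated DNA, and Chek1 had no end peak of either antibody in any library. Most peaks were therefore scattered, a few to each gene and library.

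Sox9 peaks recurred rarely at these genes. A Sox9 end peak in at least 2 of 8 libraries was seen at 6 genes (13.0%, against 20.1% of all genes), namely Ccnd3, E2f1, E2f3, Cdc20, Plk1 and Aurka. E2f1 and E2f3 alone reached 3 libraries (4.35%, against 6.32%), and none reached 4 or 5, which 1.58% and 0.311% of all genes did. None of the 40 Sox9 end peaks stood above 1 step, while 4.41% of all genes had a Sox9 end peak of 2 or more steps in at least 1 library.

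H3K4me3 recurred more, but much of that came from 1 library. An H3K4me3 peak at an end in at least 2 of 8 libraries was found at 24 genes (52.2%, against 40.2% of all genes). A peak at an end in at least 3 of 8 libraries was found at 13 genes (28.3%, against 19.5% of all genes and 20.6% of the same deciles): Mcm5, Ccnd1, Ccne1, Ccne2, Cdk2, Cdk4, Cdc20, Cdkn1b, Rb1, Mdm2, Sesn2, Atr and Chek2. Without the H3K4me3 library of replicate 1 at 10 days, 4 genes remained, Mcm5, Cdk4, Rb1 and Mdm2 (8.7%, against 10.8% of all genes and 11.4% of the same deciles). Rb1 and Mdm2 reached 4 libraries (4.35%, against 7.53%), and no gene reached 5 (2.33% of all genes).

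**Figure D1:**
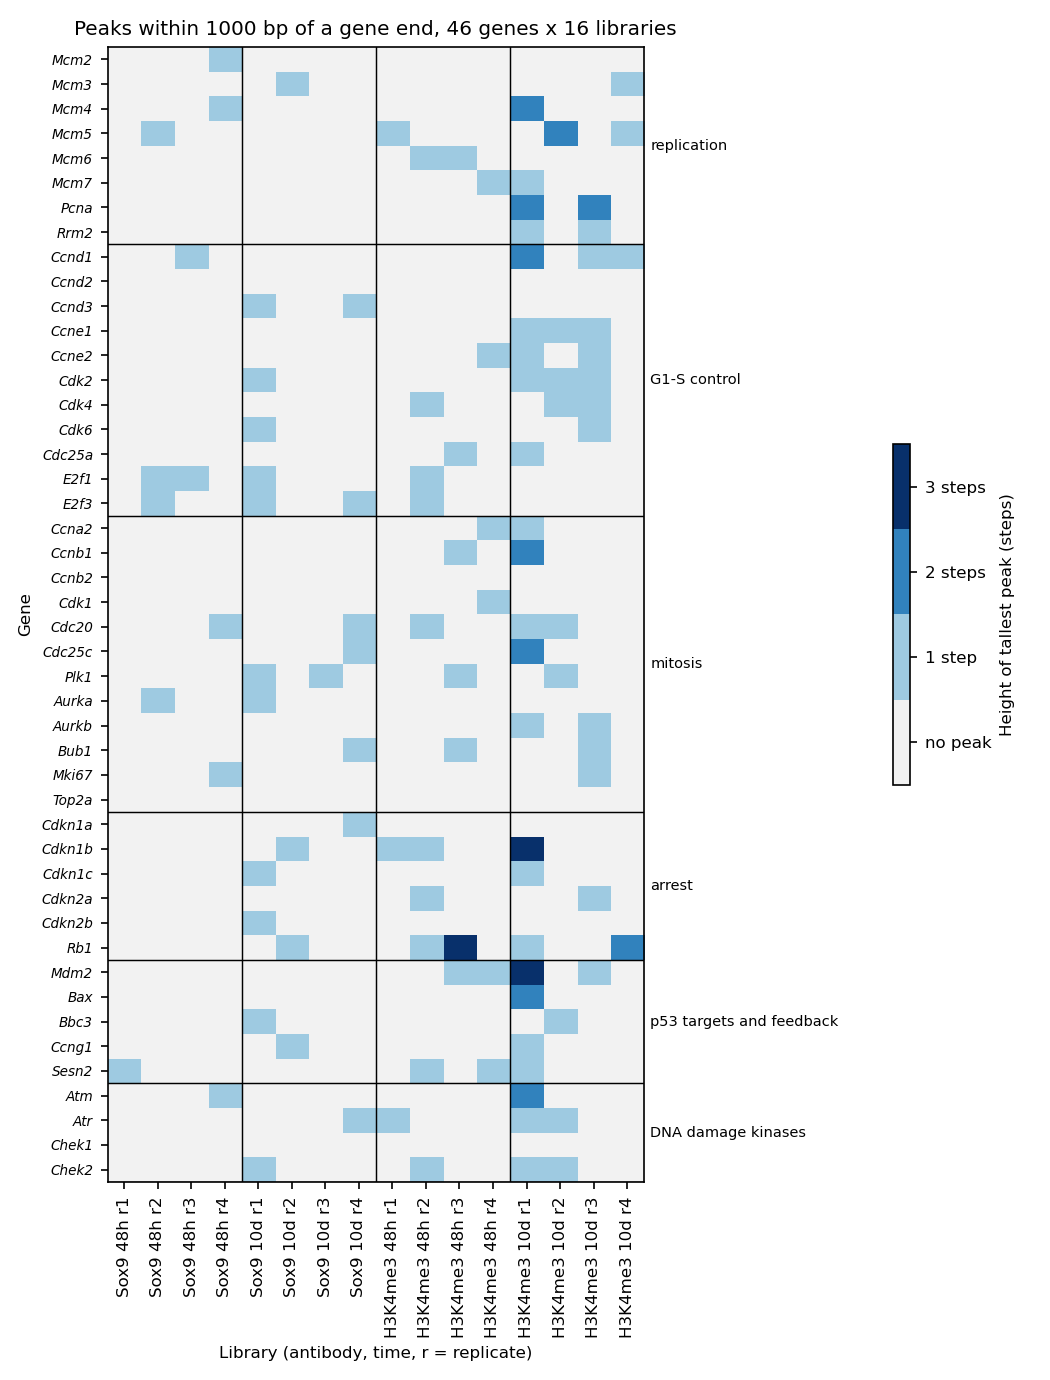
Peaks within 1000 bp of either end of each of the 46 genes (vertical axis, grouped by role) in the 16 libraries (horizontal axis). Colour gives the height of the tallest peak in steps; most cells are empty, H3K4me3 10d replicate 1 is the fullest column, and the 14 peaks of 2 or more steps are all of H3K4me3.

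Peaks of 2 or more steps were all of H3K4me3: 14 of the 128 (10.9%), or 15.9% of the H3K4me3 end peaks. At the ends of all genes this share ran from 5.29% to 31.3% over the H3K4me3 libraries. The whole lists of both antibodies, with peaks away from gene ends, had 4.16%. The 14 peaks stood at the 11 genes Mcm4, Mcm5, Pcna, Ccnd1, Ccnb1, Cdc25c, Cdkn1b, Rb1, Mdm2, Bax and Atm. That is 23.9% of the genes, against 19.8% of all genes. Replicate 1 at 10 days supplied 10 of the 14, which was 31.2% of its own peaks at these ends, beside 31.3% at the ends of all genes in that library. Without it, 3 genes remained, Mcm5, Pcna and Rb1 (6.52%, against 8.45% of all genes and 8.95% of the same deciles). Among the 37 genes with a known strand, 9 of 9 such peaks lay at the 5′ end, beside 89.9% for all genes with a strand. Of all H3K4me3 end peaks of these genes, 58 lay at the 5′ end and 10 at the 3′ end (85.3% at the 5′ end, against 74.6% for all genes), and of Sox9 peaks 25 and 10 (71.4%, against 70.2%).

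**Figure D2:**
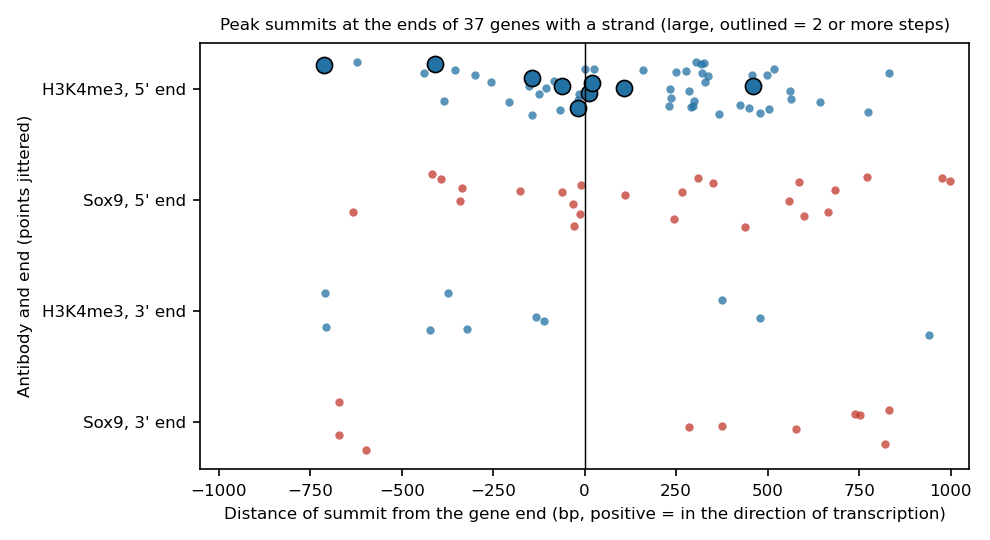
Distance of each peak summit from the gene end (horizontal axis, bp, positive in the direction of transcription) for the 37 genes with a strand, by antibody and end (vertical axis, jittered). Large outlined points are peaks of 2 or more steps; all 9 are H3K4me3 at the 5′ end, and the 25 Sox9 points at the 5′ end spread over the window.

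The promoters of 37 of the 46 genes were in the RefSeq promoter table of GRCm38.p6, 1 being taken per gene. The 250 bases before the start were searched on both strands for the CCAAT box (CCAAT), which NF-Y binds, the cell cycle homology region (TTTGAA), which the DREAM complex and its relatives bind, 2 forms of the E2F site (GCGGGAA or TTTGGCGC), and 2 forms of the Sox core (AACAAT or ACAAAG). None of these strings contains another. The 7 promoters printed include 5 of genes with an H3K4me3 peak of 2 or more steps at the 5′ end, Pcna, Ccnb1, Cdkn1b, Mdm2 and Bax. Mcm5 and Atm also had such a peak and were not printed. Cdc20 was added because both antibodies met there in a single region, and E2f3 for the most Sox9 libraries in a single region at a gene end. The printed promoters run 5′ to 3′ on the strand of the gene. Capitals mark the motifs, read on either strand, so that ATTGG is a CCAAT box on the other strand.
Pcna (chr2:132253181-132253430, minus strand): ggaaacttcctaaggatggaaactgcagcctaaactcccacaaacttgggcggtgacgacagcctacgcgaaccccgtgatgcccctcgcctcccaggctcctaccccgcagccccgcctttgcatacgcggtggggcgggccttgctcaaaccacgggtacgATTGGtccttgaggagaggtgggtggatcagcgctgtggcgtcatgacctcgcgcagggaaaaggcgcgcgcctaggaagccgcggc
E2f3 (chr13:29986064-29986313, minus strand): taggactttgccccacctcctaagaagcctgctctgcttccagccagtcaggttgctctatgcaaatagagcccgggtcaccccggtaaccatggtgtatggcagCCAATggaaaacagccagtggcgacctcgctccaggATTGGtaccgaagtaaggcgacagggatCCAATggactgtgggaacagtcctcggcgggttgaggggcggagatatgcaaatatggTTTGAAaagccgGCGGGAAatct
Ccnb1 (chr13:100786487-100786736, minus strand): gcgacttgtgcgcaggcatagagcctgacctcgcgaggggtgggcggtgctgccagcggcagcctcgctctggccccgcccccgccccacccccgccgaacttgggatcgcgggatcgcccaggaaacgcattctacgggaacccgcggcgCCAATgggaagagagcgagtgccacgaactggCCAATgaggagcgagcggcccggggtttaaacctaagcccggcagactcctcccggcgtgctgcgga
Cdc20 (chr4:118437344-118437593, minus strand): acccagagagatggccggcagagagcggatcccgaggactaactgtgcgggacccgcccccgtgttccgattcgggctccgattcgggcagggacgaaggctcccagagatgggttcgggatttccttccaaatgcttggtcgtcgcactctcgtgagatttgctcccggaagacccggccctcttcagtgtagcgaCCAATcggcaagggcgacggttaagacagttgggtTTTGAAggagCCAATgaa
Cdkn1b (chr6:134920151-134920400, plus strand): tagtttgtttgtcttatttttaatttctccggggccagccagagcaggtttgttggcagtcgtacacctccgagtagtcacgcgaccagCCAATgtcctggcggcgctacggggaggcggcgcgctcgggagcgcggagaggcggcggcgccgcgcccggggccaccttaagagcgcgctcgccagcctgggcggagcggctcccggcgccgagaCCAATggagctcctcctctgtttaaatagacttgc
Mdm2 (chr10:117710759-117711008, minus strand): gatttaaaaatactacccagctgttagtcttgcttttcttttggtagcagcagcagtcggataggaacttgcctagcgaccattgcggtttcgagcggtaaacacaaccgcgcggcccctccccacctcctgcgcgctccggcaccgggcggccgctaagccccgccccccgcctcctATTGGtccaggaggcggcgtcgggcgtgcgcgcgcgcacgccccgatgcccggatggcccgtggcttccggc
Bax (chr7:45466899-45467148, minus strand): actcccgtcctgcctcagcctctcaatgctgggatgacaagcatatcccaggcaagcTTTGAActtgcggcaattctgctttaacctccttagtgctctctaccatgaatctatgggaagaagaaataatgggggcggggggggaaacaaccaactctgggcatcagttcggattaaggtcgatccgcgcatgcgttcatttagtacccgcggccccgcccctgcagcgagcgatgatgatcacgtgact

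CCAAT boxes were the commonest of these motifs. They stood in 25 of the 37 promoters (67.6%), against 36.5% of 17492 promoters, 1 per gene. All 7 replication promoters and all 9 mitosis promoters that were matched held the motif, against 3 of 8 of G1-S control, 1 of 4 of arrest (Cdkn1b), 3 of 5 of the p53 group and 2 of 4 of the kinases. The cell cycle homology region stood in 9 (24.3%, against 15.1%), 5 of them mitotic: Ccnb2, Cdk1, Cdc20, Mki67 and Top2a. E2F sites stood in 8 (21.6%, against 5.44%): Mcm5, Mcm6, Mcm7, Cdk2, Cdc25a, E2f3, Cdkn2a and Chek2, and in none of the mitosis promoters. Sox cores were as common here as elsewhere, in 8 of 37 (21.6%, against 21.9%), and none stood in the 7 printed promoters. The promoter of Mcm5, chosen out of the printed set despite its 2-step H3K4me3 peak, held 1 Sox core. These are matches of letters, described without a test.

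Among the replication genes, H3K4me3 lay at the 5′ end of Pcna, Mcm5, Mcm6, Mcm7 and Rrm2 in 2 libraries each and of Mcm3 in 1, and Sox9 peaks were few. Of 64 gene-library pairs, 4 had a Sox9 end peak (6.25%, against 10.2% in the same length deciles) and 13 an H3K4me3 end peak (20.3%, against 18.1%). Pcna encodes the clamp that holds DNA polymerase on its template. H3K4me3 peaks stood at its start in 2 libraries, replicates 1 and 3 at 10 days, and in 0 of 4 at 48 h. Each library had a 2-step peak, with summits 18 and 143 bp before the start, inside the printed promoter, and a 1-step peak, 457 and 276 bp past it. No Sox9 peak lay at its ends or in its body window in any of the 8 libraries, and it was the only one of the 46 without such a peak. The neighbour Cds2 lies within 1000 bp of the same peaks.

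Mcm5, a subunit of the MCM2-7 helicase that opens the double helix, had H3K4me3 at an end in 3 libraries. A 2-step peak of replicate 2 at 10 days stood 712 bp before the start, a 1-step peak of replicate 4 at 10 days 367 bp past it, and a 1-step peak of replicate 1 at 48 h at the 3′ end. Its only Sox9 peak, of replicate 2 at 48 h, lay 177 bp before the start. No 2 of these peaks shared a region. The other helicase subunits had end peaks in 1 or 2 libraries of an antibody at most, as did Rrm2, the ribonucleotide reductase subunit, whose 2 H3K4me3 peaks (replicates 1 and 3 at 10 days) overlapped 250 and 231 bp past the start.

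In the body window the replication genes had fewer Sox9 peaks than genes of their length. At 48 h 1, 2, 2 and 2 of the 8 genes had a peak in replicates 1 to 4, and at 10 days 4, 2, 1 and 4 of 8. All 8 shares lay below those of the same deciles in the same library, by 8.67 ± 6.72 points at 48 h and 13.1 ± 11.2 points at 10 days (SD, n = 4). Each gene is worth 12.5 points. The 20 other replication genes examined did not share this at 48 h: their Sox9 share was 45.0% ± 16.8, against 32.6% in their deciles, above in 4 of 4 libraries, and 43.8% ± 28.7 against 50.6% at 10 days.

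The G1-S genes had Sox9 end peaks in 11 of 88 gene-library pairs (12.5%, against 10.7% in their deciles) and H3K4me3 in 20 (22.7%, against 18.4%). E2f3, an activator of replication genes, held Sox9 in 1 region, chr13:29985190-29985583, in 3 libraries: replicate 2 at 48 h and replicates 1 and 4 at 10 days. The summits lay 585, 685 and 772 bp past the start of the gene on the minus strand, and an H3K4me3 peak of replicate 2 at 48 h stood in the same region at 831 bp. All 4 peaks stood at 1 step. It was the region of the 46 genes' ends with most Sox9 libraries.

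E2f1, which also activates replication genes, had Sox9 end peaks in 3 libraries, replicates 2 and 3 at 48 h and replicate 1 at 10 days. At the 5′ end the summits lay 29 bp before the start (48 h) and 110 bp past it (10 days), in a shared region. At the 3′ end they lay 578 and 831 bp beyond, beside Necab3, and the H3K4me3 library of replicate 2 at 48 h had a peak in the first of these regions, 480 bp beyond. For neither E2f gene was a difference between times called by Fisher's exact test (2 of 4 libraries against 1 of 4, p = 1 unadjusted and adjusted for each).

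H3K4me3 stood at the start of Cdk2 and Cdk4 in a region shared by 3 libraries each. Cdk2, the partner of cyclin E, had it in replicates 1, 2 and 3 at 10 days and in 0 of 4 libraries at 48 h, in chr10:128704422-128704885, with summits 425, 498 and 299 bp past the start. Cdk4, the partner of cyclin D, had it in replicate 2 at 48 h and replicates 2 and 3 at 10 days, in chr10:127063687-127064004, 327, 232 and 304 bp past the start. Sox9 lay near the start of Cdk2 in 1 library, replicate 1 at 10 days, 416 bp before it, and at no end of Cdk4. The end peaks of Cdk2 lie within 1000 bp of Pmel or inside it.

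Among the cyclins, Ccne1 had H3K4me3 at an end in replicates 1, 2 and 3 at 10 days and in none of the 48 h libraries. Its 5′ summits lay 301 and 153 bp before and 235 bp past the start. Ccne2 had it in replicate 4 at 48 h and replicates 1 and 3 at 10 days, 44, 805 and 316 bp inside the end of lower coordinate. These Ccne2 peaks lie within 1000 bp of A630034I12Rik or inside it. Neither cyclin E gene had a Sox9 end peak. Ccnd1, which links growth signals to the cycle, had H3K4me3 at an end in replicates 1, 3 and 4 at 10 days and in 0 of 4 libraries at 48 h. A 2-step peak of replicate 1 lay 624 bp inside the end of higher coordinate, and 1 Sox9 end peak stood in replicate 3 at 48 h.

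No difference between times in H3K4me3 at the ends was called for any of the 46 genes. Over 21887 genes, 0 (0.0%) were called by Fisher's exact test with Benjamini-Hochberg adjustment, and 52 (0.238%) had an unadjusted p under 0.05, none among the 46. The lowest unadjusted p among them by Fisher's exact test was 0.1429 (adjusted p = 1), as at Cdk2, Ccne1 and Ccnd1 with 3 of 4 libraries against 0 of 4. In direction, 22 genes had more libraries at 10 days, 6 fewer and 18 equal (47.8% more, against 40.3% of all genes). For Sox9, 0 genes (0.0%) were called, 5 (0.0228%) had an unadjusted p under 0.05, none of them among the 46, and 17 of the 46 had more libraries at 10 days and 8 fewer (36.96% more, against 28.97% of all genes, and 17.4% fewer, against 14.2%). In none of the 46 did the times separate without overlap, as 0.224% of all genes did with 10 days above and 0.0137% with 10 days below for H3K4me3, and 0.0183% and 0.00457% for Sox9. With 4 against 4 libraries the smallest p is 0.0286, and 12507 genes would have to reach it before any passed the adjustment, so these comparisons could not call a single gene.

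In the mitosis group, Cdc20 had the most libraries. It encodes the activator of the anaphase-promoting complex. Its 5′ region chr4:118436789-118437161 held H3K4me3 of replicate 2 at 48 h and replicate 2 at 10 days, 503 and 284 bp past the start, and Sox9 of replicate 4 at 10 days, 351 bp past it. Another H3K4me3 peak, of replicate 1 at 10 days, lay 19 bp before the start, in the printed promoter, and a second Sox9 peak, of replicate 4 at 48 h, near the 3′ end and Elovl1. All stood at 1 step.

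Mki67, the proliferation marker Ki-67, had 1 end peak of each antibody: H3K4me3 in replicate 3 at 10 days, 62 bp before the start, and Sox9 in replicate 4 at 48 h, at the 3′ end. Ccnb1, the cyclin of Cdk1, had H3K4me3 in replicate 3 at 48 h, 143 bp before the start, and in replicate 1 at 10 days, a 2-step peak 459 bp past it. It had no Sox9 end peak. Plk1 and Aurka, kinases of the spindle, had Sox9 at an end in 2 libraries each. The mitosis genes had Sox9 end peaks in 9 of 96 gene-library pairs (9.37%, against 10.3% in their deciles) and H3K4me3 in 16 (16.7%, against 18.2%), close to genes of their length.

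The arrest genes had no Sox9 end peak at 48 h. That was 0 of 24 gene-library pairs, against 8.04% in their length deciles, and 5 of 24 at 10 days (20.8% ± 16 SD, against 12.9%). By replicate at 10 days, 2, 2, 0 and 1 of the 6 genes had a peak: Cdkn1c and Cdkn2b in replicate 1, Cdkn1b and Rb1 in replicate 2, and Cdkn1a in replicate 4. No gene had Sox9 in more than 1 library, and the groups overlapped at 0. H3K4me3 stood at their ends in 5 of 24 pairs at either time.

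Cdkn1a, the p21 inhibitor that p53 induces, lacked H3K4me3 within 1000 bp of its annotated ends in all 8 libraries. Within 3000 bp of either end, H3K4me3 was found in 4 libraries. The only Cdkn1a peak within 1000 bp of an end was that of Sox9 in replicate 4 at 10 days, 822 bp beyond the 3′ end. In the body window it had Sox9 in 7 of 8 libraries and H3K4me3 in 7 of 8, where 8.98% and 26.2% of all genes, and 1.60% and 12.9% of those of its length decile, reached 7. Of the 46 genes, 3 reached 7 for Sox9 (6.52%, against 5.73% in the same deciles) and 9 for H3K4me3 (19.6%, against 21.8%). As peaks per 10000 peaks of the library, Sox9 at Cdkn1a was 1.30, 0.754, 0 and 0.594 at 48 h and 0.585, 0.676, 0.575 and 0.504 at 10 days. H3K4me3 was 0.339, 0.300, 0.806 and 0 at 48 h and 0.452, 0.323, 0.403 and 0.618 at 10 days. The times overlapped for both antibodies, with an unadjusted p of 0.6286 for Sox9 and 0.6571 for H3K4me3 by exact permutation (adjusted p = 1 for both). A region 6594 bp beyond the gene, chr17:29107316-29108007, held Sox9 in 3 libraries (replicate 4 at 48 h, replicates 1 and 2 at 10 days) and H3K4me3 in 2 (replicate 3 at 48 h and at 10 days), with peaks of up to 2 steps. The windows of the 46 genes held 1 other region with peaks in 5 libraries, beside Mcm4 and Prkdc, and none with more. That region, chr16:15642447-15642855, held Sox9 in 3 libraries and H3K4me3 in 2, with peaks of up to 26 steps.

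Cdkn1b, the p27 inhibitor, had a 3-step H3K4me3 peak in replicate 1 at 10 days, 62 bp before the start and within the printed promoter. Replicates 1 and 2 at 48 h had 1-step peaks 384 bp before and 291 bp past the start. Sox9 of replicate 2 at 10 days lay 340 bp before the start, in the region of the first of these, and again 977 bp past it.

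Rb1, the retinoblastoma brake on E2F, had H3K4me3 at an end in 4 libraries, 2 at each time. At the end of higher coordinate, chr14:73325769-73326045 held a 3-step peak of replicate 3 at 48 h, a 1-step peak of replicate 1 at 10 days and a 2-step peak of replicate 4 at 10 days, with summits 28, 13 and 8 bp inside the end. Replicate 2 at 48 h had a peak at the other end, where Sox9 of replicate 2 at 10 days also lay, in a separate region.

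Mdm2, the ubiquitin ligase that removes p53, had H3K4me3 at an end in 4 of 8 libraries and Sox9 at an end in 0 of 8. Replicates 3 and 4 at 48 h and replicates 1 and 3 at 10 days had it, with 5′ summits 160 bp past, 106 bp before, 20 bp past and 644 bp past the start; that of replicate 1 at 10 days stood at 3 steps. By Fisher's exact test of Sox9 against H3K4me3, p was 0.0769 unadjusted and 1 adjusted, the lowest unadjusted p of this comparison among the 46 genes. Sesn2, a stress-induced brake on growth signalling, had H3K4me3 at an end in replicates 2 and 4 at 48 h and replicate 1 at 10 days. Sox9 of replicate 1 at 48 h lay 11 bp before the start, in a region shared with H3K4me3 peaks 0 and 25 bp past it. Bax, which opens mitochondria in apoptosis, had a single end peak, of H3K4me3 at 2 steps in replicate 1 at 10 days, 12 bp past the annotated start.

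Of the kinases that sense DNA damage, Atr and Chek2 each had H3K4me3 in 3 libraries and Sox9 in 1, all at the 5′ end. At Atr, Sox9 of replicate 4 at 10 days lay 558 bp past the start, in a region with H3K4me3 of replicate 1 at 48 h and replicate 1 at 10 days, 563 and 449 bp past it. At Chek2, Sox9 of replicate 1 at 10 days lay 32 bp before the start, in a region with H3K4me3 of replicates 1 and 2 at 10 days, 52 and 68 bp before it, and the neighbour Hscb lies within 1000 bp. The end peaks of Atr lie within 1000 bp of 1700065D16Rik or inside it. Atm had 2-step H3K4me3 peaks in replicate 1 at 10 days alone, beside Npat.

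Both antibodies met in a single region at the ends of 11 genes, Mcm3, Cdk6, E2f1, E2f3, Cdc20, Cdkn1b, Ccng1, Sesn2, Atm, Atr and Chek2. Such a region may join peaks of different pellets and times, and its share over all genes was not counted. Of 35 gene-library pairs with Sox9 and 76 with H3K4me3, 5 had both at an end of the gene in the same pellet: E2f1 and E2f3 in replicate 2 at 48 h, and Cdk2, Cdkn1c and Chek2 in replicate 1 at 10 days. That was 14.3% of the Sox9 pairs and 6.58% of the H3K4me3 pairs, beside 28.2% and 16.2% over all genes. The 2 pellets differed in direction: at 48 h the overlap was 50% and 20% of the pairs of the 46 genes, against 18.5% and 16.8% over all genes, and at 10 days 27.3% and 12.5%, against 46.5% and 25.8%. Each share rests on 2 or 3 genes.

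Sox9 and H3K4me3 were compared at the ends over 8 libraries each. By Fisher's exact test 0 genes (0.0%) were called after adjustment, and 132 (0.603%) had an unadjusted p under 0.05, none of them among the 46. Sox9 stood at fewer libraries than H3K4me3 in 25 of the 46, at more in 7 and at equal numbers in 14 (54.4% fewer, against 47.1% of all genes). No gene of all those tested, 0.0%, separated the antibodies without overlap here.

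Over libraries, the share of the 46 genes with an end peak followed that of genes of their length. For Sox9 it was 2.17%, 8.70%, 4.35% and 10.9% at 48 h (6.52% ± 3.97, SD, n = 4) and 23.9%, 8.70%, 2.17% and 15.2% at 10 days (12.5% ± 9.29). The same length deciles had 7.86% and 12.9%. For H3K4me3 it was 6.52%, 21.7%, 15.2% and 13.0% at 48 h (14.1% ± 6.28, deciles 13.2%) and 52.2%, 19.6%, 28.3% and 8.70% at 10 days (27.2% ± 18.5, deciles 23.4%). In each case the difference from the deciles was smaller than its spread over replicates, and the times overlapped.

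**Figure D3:**
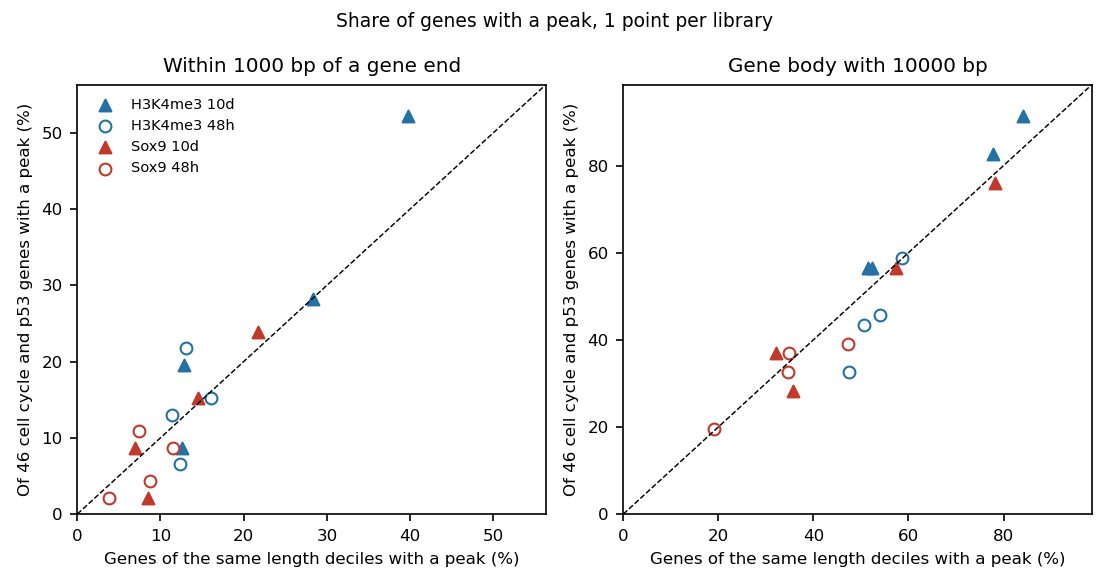
Share of the 46 genes with a peak (vertical axis, %) against the share of genes of the same length deciles in the same library (horizontal axis, %), 1 point per library, at the gene ends (left) and in the body window (right); the dashed line marks equal shares. At the ends points fall on both sides of the line, and in the body window the 4 H3K4me3 libraries at 10 days lie above it, by 4.27 to 7.2 points.

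In the body window the times differed for H3K4me3. At 48 h, 43.5%, 45.7%, 58.7% and 32.6% of the 46 genes had a peak (45.1% ± 10.7, against 52.7% in the same deciles), and at 10 days 91.3%, 56.5%, 82.6% and 56.5% (71.7% ± 17.9, against 66.4%). Less the deciles, this was -7.61 ± 6.15 points at 48 h, with 1 of 4 libraries above the deciles by 0.0871 points, and 5.34 ± 1.28 points at 10 days, with 4 of 4 above. The groups did not overlap, and the difference was 13 points. It was 2.44 points with peaks of 2 or more steps and 1.62 points when every list was shortened to 7706 peaks, and the groups then overlapped; these settings kept 23999 and 123296 of 576322 peaks, which lowers every share. The 88 further genes of the same pathways did not show such a separation: less their deciles they stood at -2.88 ± 5.86 points at 48 h and -0.685 ± 8.18 at 10 days, with overlap, and the difference between the lists was not tested. No p is given, since the genes were chosen as a list with earlier results known.

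Among the roles, G1-S control stood highest above its deciles at 10 days. There 54.5%, 36.4%, 63.6% and 45.5% of the 11 genes had an H3K4me3 peak in the window at 48 h and 90.9%, 72.7%, 100% and 81.8% at 10 days, without overlap. The deciles had 56.3% and 69.3%, so that the difference from them was -6.28 ± 10.5 and 17.0 ± 8.76 points. The change of 23.3 points fell to 2.43 with peaks of 2 or more steps and to 6.3 with equal list lengths, with overlap in both, and was 27.3 without replicate 1 at 10 days, settings chosen after seeing the data. Replication genes went from 34.4% ± 15.7 (deciles 48.7%) to 68.8% ± 29.8 (63.2%), mitosis genes from 43.8% ± 12.5 (50.3%) to 66.7% ± 21.5 (64.6%) and arrest genes from 45.8% ± 31.5 (52.6%) to 62.5% ± 25.0 (65.2%). The kinases had 43.8% ± 23.9 (deciles 64.2%) and 81.2% ± 12.5 (77.2%). The p53 group had peaks in 11 of 20 gene-library pairs at 48 h (deciles 48.1%) and 12 of 20 at 10 days (deciles 62.1%). It thus stood above its deciles at 48 h and below them at 10 days. In these 5 roles the difference from the deciles overlapped between times. For Sox9 the whole list followed its deciles at both times, with 32.1% ± 8.76 (34.0%) at 48 h and 49.5% ± 21.3 (50.9%) at 10 days.

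Gene by gene, 30 of the 46 had more H3K4me3 peaks per 10000 in the body window at 10 days and 16 fewer (65.2% more, against 48.8% of all genes), with a median difference of 0.121 against 0. By exact permutation with adjustment 0 genes (0.0%) were called, and 425 (1.94%) had an unadjusted p under 0.05, none of them among the 46. The times separated without overlap at none of the 46, beside 1.2% of all genes with 10 days above and 0.745% with 10 days below. The lowest unadjusted p among the 46 was 0.0571, at Ccnd3 and Cdk4, which were named after their values were seen for this window. Ccnd3, a cyclin D, had 0.678, 0, 0.538 and 0 H3K4me3 peaks per 10000 at 48 h and 1.13, 1.29, 0.538 and 0.926 at 10 days (difference 0.668, adjusted p = 1 by exact permutation). Cdk4 had 0, 0.300, 0.269 and 0.387 at 48 h and 0.339, 0.646, 0.403 and 0.618 at 10 days (difference 0.263, adjusted p = 1 by exact permutation). In both, the highest library at 48 h reached the lowest at 10 days or passed it.

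**Figure D4:**
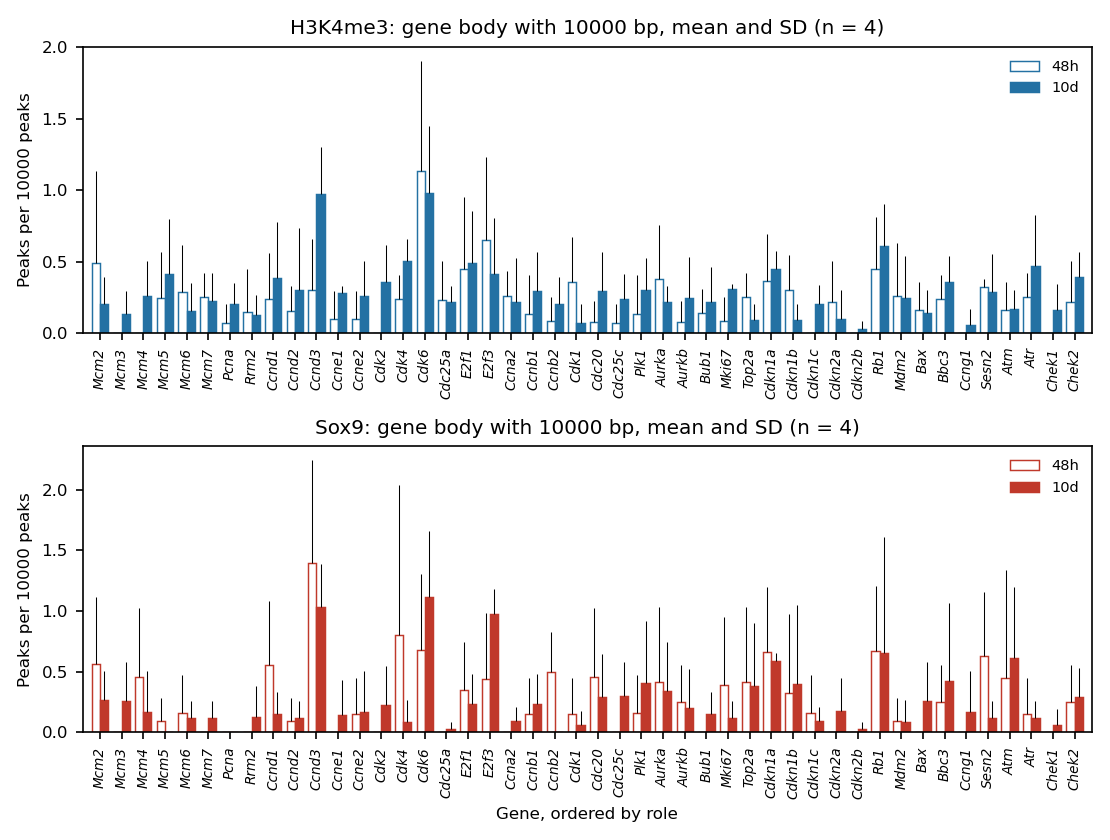
Peaks per 10000 peaks of the library in the body window of each of the 46 genes (horizontal axis, ordered by role), as mean and upper SD of 4 libraries at 48 h (open bars) and 10 days (filled bars), for H3K4me3 (top) and Sox9 (bottom). H3K4me3 at Ccnd3 and Cdk4 is higher at 10 days with overlapping libraries, and no Sox9 peak was found for Pcna.

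For Sox9 in the same window, 24 genes had more at 10 days, 21 fewer and 1 neither (52.2% more, against 48.8% of all genes). By exact permutation 0 genes (0.0%) were called after adjustment, and 324 (1.48%) had an unadjusted p under 0.05, none of them among the 46. None of the 46 separated without overlap, beside 0.832% of all genes with 10 days above and 0.649% below. Between antibodies, 0 genes (0.0%) were called and 1048 (4.79%) had an unadjusted p under 0.05, among them 4 of the 46, named here after their values were seen. Cdc25a, the phosphatase that activates Cdk2, had 0.0146 Sox9 and 0.226 H3K4me3 peaks per 10000 on average (p = 0.01259 by exact permutation, adjusted p = 0.929), and Sox9 was present in 1 of 8 libraries. Mcm5 and Mcm7 were also lower in Sox9, and Ccnd3 was higher, with 1.21 against 0.638 (p = 0.0483 by exact permutation, adjusted p = 0.982). Ccnd3 was also the only one of the 46 with Sox9 in its window in 8 of 8 libraries, as were 3.48% of all genes and 4.61% of the genes of its length decile. None of the 46 separated the antibodies without overlap, beside 0.00914% of all genes with Sox9 below.

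The 88 further genes of the same pathways gave no call in any of the 6 comparisons. Sox9 stood at their ends in 79 of 704 gene-library pairs (11.2%, against 10.5% in their deciles) and H3K4me3 in 132 (18.8%, against 18.6%). Among these, 4 genes had an end peak in 5 of 8 libraries of an antibody: Anln, a scaffold of the cleavage furrow, and Plk2, a p53-induced kinase, for Sox9, and Btg1, an antiproliferative gene, and Plk3 for H3K4me3. Over all genes, 0.311% reached at least 5 libraries for Sox9 and 2.33% for H3K4me3, so the H3K4me3 count was close to the share over all genes. Of the 23 further p53 genes, H3K4me3 stood at the ends of 32.6% ± 16.5 at 10 days, against 23.7% in their deciles and above in 4 of 4 libraries, and of 14.1% ± 11.4 at 48 h, against 13.3%. Kif23, a motor of the cleavage furrow, was named after its values were seen. It had H3K4me3 at an end in each of the 10-day libraries and none of the 48 h ones, as did 0.224% of all genes. Among the 88 it alone had an unadjusted p under 0.05 there (Fisher's exact test), as did 0.238% of all genes. It was not called after adjustment.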

How the data were processed

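CUT&RUN peaks of Sox9 and H3K4me3 were analysed in 16 of 24 samples, and the 8 inputs were not used here. The submitters' processing notes name mm10, MACS3, Bowtie, Bowtie2 and Partek 10. The peak names in the files show 1 list for each antibody library, called against its pellet's input. How reads were filtered, scaled and thresholded is not given in the sources used here. The deposited score, whole numbers for display, was left aside. The deposited fold is the authors' ratio of pileup to local background at the summit; the authors gave p-value and q-value as −log10. These were used only within a list, to solve the pileup and to filter. The deposited summit offset was added to the start. Depth per library was unknown, so precision rests on 4 replicates per group, and p-values measure only the spread between them.

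The 46 genes, the roles, the other lists and the alternatives were chosen with earlier results of these data known. Peak by peak values are given for genes with an end peak in at least 3 of 8 libraries of either antibody, and for Cdkn1a, Ccnd1, Mki67, Pcna and Mdm2. Other pathway genes were named with 5 of 8, and Kif23 after its values were seen. Length matching used every protein-coding gene of the same length decile, with no drawn list. Presence at ends was compared by two-sided Fisher's exact test, and peaks per 10000 in the body window by two-sided exact permutation, with Benjamini-Hochberg adjustment over 21887 genes at 0.05. Every peak was given the nearest whole number of steps, with 1 as the lowest. The share on whole multiples given above counts peaks within 0.05 of a whole number. Regions are peaks of all lists merged at 1 bp of overlap. In simulated data, 200 of 21887 genes were given peaks in every library of 1 group and none of the other. Of these, 0% were recovered after adjustment in each comparison of times and 100% in each comparison of antibodies. That outcome was set by the smallest p each design allows. In the data the antibodies separated without overlap at 0.0% of genes at the ends and 0.00914% in the body window. Recovery of smaller differences was not simulated. The body-window runs used end-peak rates and equal list lengths, unlike the data.

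Both antibody libraries of a time and number share a pellet, per the labels' protocols. Correlations of their deviations ran from -0.0062 to 0.0195, and 1 of 8 best matched its own partner, so the pairing rests on the labels. In no pair of lists did more than 13 peaks have the same start and end, so no list was a copy. Promoter sequences and strand were taken from RefSeq (GRCm38.p6); 9 genes had no entry matched. Software was SciPy 1.17.1, pandas 2.3.3 and NumPy 2.4.6 under Python 3.11.15, with Matplotlib 3.10.9 for plots.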

Additional observations from a re-analysis of the deposited data

Results flagged for a closer look

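In 2 groups of 4 libraries, 1 library stood far from the other 3 in the share of the 46 genes with an end peak of 2 or more steps. For H3K4me3 at 10 days, replicate 1 had 19.6% and the others 2.17% each. For H3K4me3 at 48 h, replicate 3 had 2.17%, which is the single gene Rb1, and the others 0. How often such a gap arises by chance was not computed. Replicate 1 at 10 days also held the most peaks, and 31.3% of its peaks at the ends of all genes stood at 2 or more steps, against 5.29% to 14.0% in the other 3 libraries; its part in the counts of recurrent H3K4me3 genes is given by the values without it. What set it apart was not tested.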

How the results depend on the processing

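Each of the 6 gene-by-gene comparisons gave 0 genes called after adjustment in every alternative run. The runs were a q filter, 2 or more steps, equal list lengths, without recurrent regions, other windows, any overlap at the ends, a replicate block and each replicate left out. For the comparisons of times the design set this outcome, so it is no measure of stability. There 12507 genes would have had to reach the smallest p, and leaving a replicate out cannot lower that p. With the pellet as replicate block, 0 genes were called, and the genes with an unadjusted p under 0.05 went from 132 to 17 at the ends and from 1048 to 661 in the body window, 2 of them among the 46. The smallest p by exact sign flips over the pellets is 0.00781. Far more genes than these would have had to reach it before any passed the adjustment. Blocked by number across times, 0 genes were called, and 4 pairs are too few to reach the threshold by exact sign flips. Those numbers share only a number: the best match was the own number for 0 of 4 (Sox9) and 2 of 4 (H3K4me3).

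The difference between times in the H3K4me3 body share less the deciles (13 points) was 2.44 with peaks of 2 or more steps and 1.62 with equal list lengths, and 10.5 to 15.5 with each replicate left out. At the ends, that difference for H3K4me3 was 2.85 points within 1000 bp and 11 within 3000 bp, where the groups did not overlap, and between -0.0221 and 5.43 with each replicate left out. Cdkn1a then had H3K4me3 in 4 libraries in place of 0, E2f3 in 4 in place of 1, and Ccne2, Cdk4 and Mdm2 had Sox9 in 1 in place of 0. Leaving out replicate 1 at 10 days, an alternative chosen after seeing the data, took the genes with H3K4me3 in at least 3 libraries from 13 to 4 and those with 2 or more steps from 11 to 3; for at least 1 library they went from 37 to 31 (H3K4me3) and from 27 to 21 (Sox9). The cause was not tested. Unknown depth limits what an absent peak can mean.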
